A study of Mus musculus with 32 samples.

Results

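The 27 mouse adhesion G-protein-coupled receptor genes with an Adgr symbol were followed across 3 chromatin marks and 4 genotypes of HoxB8-immortalised bone-marrow cells. Members were all protein-coding genes of the GRCm38.p6 annotation whose symbol is Adgr followed by a letter and a number, which gave 27 of 21883 genes. The rule leaves out the Celsr genes, adhesion receptors under another symbol, so the family below means these 27 genes. Marks were profiled by CUT&Tag, in which an antibody directs a transposase that cuts and tags the DNA beside the mark. All cells had been grown with estrogen and stem cell factor, and estrogen, which keeps HoxB8 active, had been withdrawn from every group for 48 h. Double cells carried the Asxl1 guide sgB2 and the vector pMICH-CSF3R-T618I. CSF3R T618I cells carried the non-targeting guide and the same receptor vector. Asxl1 guide cells carried sgB2 and the empty vector pMICH-Empty, and control cells carried the non-targeting guide and that empty vector. The receptor was therefore overexpressed from a vector, and peak positions alone do not show how far the guide altered Asxl1. Each mark had 2 double, 3 CSF3R T618I, 3 Asxl1 guide and 2 control libraries. No source used here says whether libraries of a group came from separate cultures, so p-values measure the spread between these libraries, which may be technical.

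Adhesion G-protein-coupled receptors have a long extracellular part that holds adhesion domains and a GAIN domain. In many members the GAIN domain cleaves itself, and a short peptide next to the cut acts as a tethered agonist for the membrane-spanning part. The Adgrb and Adgrl subfamilies are best known from synapses, Adgra2 from brain vessels, and Adgre and some Adgrg members from leukocytes. H3K27me3 and H2AK119ub are the marks laid down by the Polycomb repressive complexes PRC2 and PRC1, and Asxl1 is a partner of Bap1, the enzyme that removes H2AK119ub. H3K4me1 lies at enhancers and beside promoters.

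For each gene the value is the fraction of a 10 kb window, 5 kb on either side of a gene end, that lay inside the authors' peaks. The end with the higher mean over all 30 libraries was used. Strand was known for 20 of the members. By strand, the end used was the 5′ end, called the start-site end, for 15 of them and the 3′ end for 5. A start-site end need not hold a RefSeq start: that of Adgrl2 is at 148954635, outside the window around 148989096. Of 8 myeloid progenitor markers 6 reached 0.2 of the window in 2 or more H3K4me1 libraries. Kit and Ptprc did not, with peaks in 3 and 2 libraries and fractions of at most 0.0436 and 0.05. The fractions summed over all 8 markers were 3.2 to 3.5 in double and 3.1 to 3.7 in CSF3R T618I cells. The sums were 2.6 to 3.3 in Asxl1 guide and 2.6 to 3.0 in control cells. None of 4 T cell, 2 fibroblast and 2 epithelial markers had an H3K4me1 peak in any library. Among 3 endothelial markers Pecam1, which blood cells also express, had a peak in 10 of 10 libraries, and the B cell gene Cd79a and the erythroid genes Klf1 and Gata1 had peaks in 6, 5 and 2 libraries, with fractions of at most 0.0658. H3K27me3 peak lists differed widely in length: 19.2 and 14.2 Mb in double cells, 31.3 to 42.2 Mb in CSF3R T618I cells, 4.73, 53.0 and 12.4 Mb in Asxl1 guide cells and 15.9 and 22.7 Mb in control cells. The library of Asxl1 guide replicate 2 thus stood apart from the other 2 of its group. H2AK119ub lists spanned 11.8, 13.4 and 16.7 Mb in Asxl1 guide cells. They spanned 39.1 and 22.6 Mb in double, 18.8 to 28.7 Mb in CSF3R T618I and 21.2 and 19.9 Mb in control cells. Every Asxl1 guide list was thus shorter than every other list of this mark. Depth is unknown, because the lists hold positions without counts. The part of list length in the differences given here was not tested except, for members, through a covariate.

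Polycomb peaks were found at more family members than H3K4me1 peaks, and the shares of all genes tested, given below, had the same order. H3K27me3 peaks touched the end of 16 members in at least 1 library and of 6 members in all 10 libraries. The corresponding counts were 15 and 9 members for H2AK119ub and 10 and 3 members for H3K4me1. No such count over all genes is given here. A gene end was tested where 2 or more libraries of the mark covered at least 0.2 of it, which held for 9 members in H3K27me3, 8 in H2AK119ub and 5 in H3K4me1. These are 33.3%, 29.6% and 18.5% of the members, against 17.0%, 14.8% and 10.6% of all genes. Of the tested members, 7 were tested in both Polycomb marks, 0 in both H3K27me3 and H3K4me1, and 1 (Adgrg1) in both H2AK119ub and H3K4me1. The remaining 13 members were tested in no mark, and Adgrf2 and Adgrf4 had no peak of any mark at the end. In the merged IgG list, the background of the assay, the member fractions were highest at Adgra2 (0.145) and Adgrb1 (0.135) and at most 0.04 elsewhere.

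**Figure D1:**
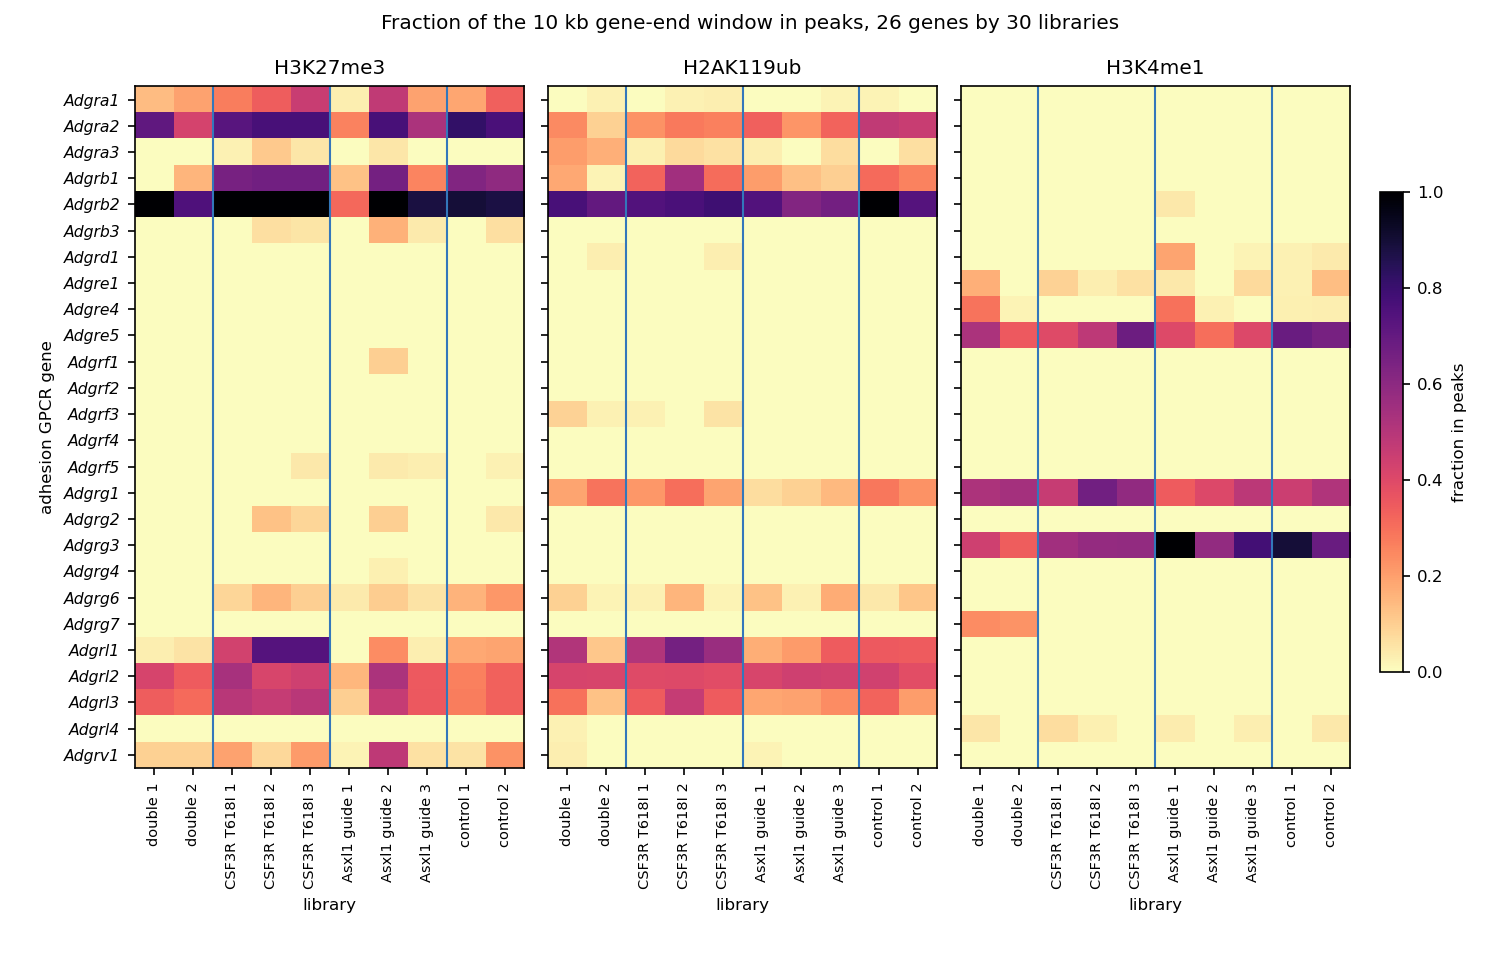
Fraction of the 10 kb gene-end window in peaks for 26 of the 27 members (rows) in the 30 libraries (columns), grouped by mark and then by genotype. Adgrb2 is covered in every library of both Polycomb marks, while Adgrg3, Adgrg1 and Adgre5 are covered in every H3K4me1 library.

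In H3K27me3 the synaptic receptor gene Adgrb1 was covered less in double cells than in CSF3R T618I cells, and Adgrl1 was covered mainly in CSF3R T618I cells. All 9 tested members had a lower mean in double cells, and 3 of 9 passed limma's moderated test with Benjamini-Hochberg adjustment, among them Adgrl1 and Adgrb1. Over all 3713 tested gene ends 22.8% were called lower in that comparison, so nothing particular to the family can be read from this count. The median difference was -0.19 for the members and -0.24 for all tested ends. The comparisons share libraries, and the double-cell differences from CSF3R T618I and from control cells are not independent.

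Adgrl1, a latrophilin that binds teneurins and FLRT proteins and is the receptor of alpha-latrotoxin, lies on chromosome 8 (83900098-83941954, plus strand). Its promoter is shown because peaks covered it in some genotypes and stopped short of it in others. The sequence runs from chr8:83899848-83900147 on the plus strand, from RefSeq (GRCm38.p6), with every CG dinucleotide in capitals.
Adgrl1: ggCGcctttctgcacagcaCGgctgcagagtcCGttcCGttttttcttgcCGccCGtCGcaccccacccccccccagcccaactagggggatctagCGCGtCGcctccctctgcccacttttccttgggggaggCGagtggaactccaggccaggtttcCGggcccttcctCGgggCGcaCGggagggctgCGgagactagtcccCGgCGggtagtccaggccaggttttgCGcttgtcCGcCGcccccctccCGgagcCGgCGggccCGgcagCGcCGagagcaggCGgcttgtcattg
It holds 28 CG dinucleotides, a motif that reads the same on both strands, and 18.8% of all promoters of this length hold at least as many. H3K27me3 peaks covered fractions of 0.177, 1 and 1 of these 300 bases in the 3 CSF3R T618I libraries and 0.343 in Asxl1 guide replicate 2. The other 6 libraries had none.

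Over the 10 kb window of Adgrl1 the H3K27me3 fraction was 0.035 and 0.055 in double cells, against 0.430, 0.735 and 0.735 in CSF3R T618I cells. Asxl1 guide libraries had 0, 0.240 and 0.035, and control libraries had 0.18 and 0.19. Every CSF3R T618I library lay above every library of the other genotypes. The widest peak reached 350 bp in double cells, where CSF3R T618I libraries had peaks of 6450, 8450 and 10750 bp and control libraries peaks of 1800 and 1900 bp. Outside CSF3R T618I cells only Asxl1 guide replicate 2 reached 0.2, so this gene entered the test through the genotype in which it was high, and a difference was built in. The double minus CSF3R T618I difference was -0.59 (SE 0.11, limma adjusted p = 0.0143). The call was lost without either double library or without CSF3R T618I replicate 2 or 3, when the adjusted p was between 0.0508 and 0.146, and with 1 kb on either side of the end (0.105). The CSF3R T618I minus control difference of 0.45 did not pass (limma adjusted p = 0.0577).

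Adgrb1, also called BAI1, binds phosphatidylserine on dying cells and takes part in their engulfment. It had H3K27me3 fractions of 0 and 0.155 in double cells, against 0.650, 0.665 and 0.665 in CSF3R T618I cells. The fractions were 0.125, 0.660 and 0.255 in Asxl1 guide cells and 0.625 and 0.590 in control cells. Both double libraries lay below all CSF3R T618I and control libraries, and the Asxl1 guide libraries spanned nearly the whole range. Double replicate 1 had no peak there and double replicate 2 had peaks of 1350 and 200 bp, where CSF3R T618I libraries had 1 peak of 6500 to 6650 bp. Relative to CSF3R T618I cells the difference was -0.58 (SE 0.13, limma adjusted p = 0.0230), and it was lost on leaving out any double or CSF3R T618I library (0.0577 to 0.146). Relative to control cells the difference was -0.53 and did not pass (limma adjusted p = 0.342), but it passed without Asxl1 guide replicate 2 (0.0107), the library with the longest list.

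Adgrb2, a brain receptor of the same subfamily, was the most covered member. Its H3K27me3 means were 0.876 in double, 1.0 in CSF3R T618I, 0.732 in Asxl1 guide and 0.886 in control cells, and its H2AK119ub fraction was at least 0.622 in every library. The RefSeq promoter of Adgrb2 holds 45 CG dinucleotides and lay in peaks of both Polycomb marks in 10 of 10 libraries. Adgra2, the GPR124 receptor that works with Reck in Wnt7 signalling of brain vessels, had H3K27me3 fractions of 0.710 and 0.425 in double, 0.730 to 0.767 in CSF3R T618I, 0.260 to 0.767 in Asxl1 guide and 0.820 and 0.762 in control cells. Adgrl3 and Adgrl2, the other latrophilins, had 0.34 and 0.31, and 0.42 and 0.345, in double cells, against 0.463 to 0.493 and 0.415 to 0.535 in CSF3R T618I cells. Adgra1, a receptor of the nervous system, and Adgrv1, the large receptor of hair cells mutated in Usher syndrome, were also tested and reached at most 0.475 and 0.48. None of these 6 genes passed in any H3K27me3 comparison over all 10 libraries.

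The other H3K27me3 comparisons called few gene ends. Relative to control cells, CSF3R T618I cells had 1 of 9 members called higher, beside 2.85% of all ends, with medians of 0.11 for the members and 0.15 for all ends. In Asxl1 guide against control cells limma called 0 of 9 members, 0 of 9 at an unadjusted p under 0.05, and 0% of all ends. Without Asxl1 guide replicate 2 that comparison called 2 members lower, Adgrb1 (-0.42, limma adjusted p = 0.00625) and Adgra2 (-0.40, limma adjusted p = 0.0253). The share of all ends called without that library is not given here, so nothing particular to these genes is read from the calls. The guide lists left spanned 4.73 and 12.4 Mb, and the control lists 15.9 and 22.7 Mb. Double cells had 0 of 9 members called against Asxl1 guide cells and 0 of 9 against control cells, with 1 at an unadjusted p under 0.05 in each and 0.0269% of all ends called higher in each. The interaction of guide and receptor called 0 of 9 members and 0% of all ends, with 2 members at an unadjusted p under 0.05. Of all 3713 tested ends, 235 had such a p in Asxl1 guide against control cells and 451 in the interaction. The numbers were 103 and 345 for double cells against Asxl1 guide and control cells.

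In H2AK119ub Adgra2 was called at the end used and Adgrg1 at its start-site end, while Adgrl2 stayed within a narrow range. Other settings also gave calls at other members, as described below. Adgra2 had 0.245 and 0.095 in double cells, 0.230 to 0.280 in CSF3R T618I cells, 0.335, 0.22 and 0.325 in Asxl1 guide cells and 0.475 and 0.455 in control cells. Both control libraries lay above all 8 others. The double minus control difference was -0.30 (SE 0.064, limma adjusted p = 0.0251), which made Adgra2 the 1 of 8 members called lower, beside 1.89% of all ends called lower and 5.02% called higher. The widest peak was 2450 and 950 bp in double cells and 4750 and 4050 bp in control cells. The call was lost without double replicate 2 (0.0945), control replicate 1 (0.140) or control replicate 2 (0.109), and after removal of sequence in IgG peaks (0.0582). Adgrl2 lay between 0.385 and 0.440 in all 10 libraries, and Adgrl1 between 0.115 and 0.660.

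The other H2AK119ub comparisons called no member at the window used, by limma. In Asxl1 guide against control cells 0 of 8 members passed, 3 had an unadjusted p under 0.05, and 7.43% of all ends were called lower and 0.526% higher. The medians there were -0.12 for the members and -0.09 for all ends. In CSF3R T618I against control cells 0 of 8 passed, 1 had an unadjusted p under 0.05, and 0.248% of ends were called higher. For double against CSF3R T618I cells the counts were 0 of 8 and 3, beside 5.7% of ends lower and 3.62% higher. Adgrb1 differed there by -0.29 (limma adjusted p = 0.0556). With covered length as covariate Adgrb1, Adgrl3 and Adgrl1 were called lower (limma adjusted p = 0.0281, 0.0302 and 0.00788). The share of all ends called in that fit is not given here. For double against Asxl1 guide cells the counts were 0 of 8 and 2, beside 10.4% of ends higher and 0.217% lower. The interaction gave 0 of 8 members, 0 at an unadjusted p under 0.05, beside 0.186% of ends higher and 0.031% lower. Of all 3230 tested ends, 859, 463, 836, 851 and 361 had an unadjusted p under 0.05 in these comparisons, in the order given. Nothing particular to the family is therefore read from the member counts.

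Adgrg1, or GPR56, is a receptor of collagen III and transglutaminase 2 that marks blood stem cells and cytotoxic lymphocytes. It carried both H2AK119ub and H3K4me1, whose peaks overlapped near its 3′ end and differed between its promoters. In the control replicate 1 libraries an H2AK119ub peak at 95012351-95013350 lay inside an H3K4me1 peak at 95011201-95013350. RefSeq gives the gene 2 promoters that lie 7.29 kb apart on the plus strand of chromosome 8. Both are shown because each carried its own mark. The first is chr8:94976859-94977158 and the second chr8:94984149-94984448, with CG dinucleotides in capitals.
Adgrg1 first promoter: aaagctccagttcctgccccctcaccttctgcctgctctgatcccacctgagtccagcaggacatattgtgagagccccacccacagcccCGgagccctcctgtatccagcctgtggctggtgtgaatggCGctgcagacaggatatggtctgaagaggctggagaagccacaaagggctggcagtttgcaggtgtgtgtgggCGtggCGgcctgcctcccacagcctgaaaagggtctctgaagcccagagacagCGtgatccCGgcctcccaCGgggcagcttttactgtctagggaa
Adgrg1 second promoter: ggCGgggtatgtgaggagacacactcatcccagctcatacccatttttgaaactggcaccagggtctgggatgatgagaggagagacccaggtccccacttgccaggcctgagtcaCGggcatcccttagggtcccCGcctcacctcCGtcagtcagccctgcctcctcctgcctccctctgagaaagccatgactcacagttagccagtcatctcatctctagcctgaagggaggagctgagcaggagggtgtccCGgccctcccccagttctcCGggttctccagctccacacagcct
They hold 7 and 6 CG dinucleotides, counts that 64.3% and 67.7% of all promoters reach or exceed. The first promoter lay in an H2AK119ub peak in both double libraries, all 3 CSF3R T618I libraries and control replicate 1, and in none of the 3 Asxl1 guide libraries or control replicate 2. The second lay in an H3K4me1 peak in 10 of 10 libraries, with a mean fraction of 0.933, and in no Polycomb peak.

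At the start-site end of Adgrg1 the H2AK119ub fraction was 0.420 and 0.451 in double, 0.586, 0.601 and 0.601 in CSF3R T618I, 0, 0 and 0.035 in Asxl1 guide and 0.53 and 0.24 in control cells. Every Asxl1 guide library lay below every other library, and the total peak length of each was also below that of every other. The single peak among the Asxl1 guide libraries spanned 350 bp, whereas control libraries had peaks of 5300 and 2400 bp and CSF3R T618I libraries peaks of 6900 to 7250 bp. This end was not the one used in the family counts, and it was examined after its values were seen. The Asxl1 guide minus control difference was -0.37 (SE 0.073, limma adjusted p = 0.0198, with 7.27% of all start-site ends called lower). The double minus Asxl1 guide difference was 0.42 (limma adjusted p = 0.00728, with 11.4% of start-site ends called higher). With covered length as a covariate neither passed (0.101 and 0.246), and without control replicate 1 the first was -0.23 and did not pass (0.0785). The second did not pass without double replicate 1 (0.0608), and the first did not pass without Asxl1 guide replicate 1 (0.0799) or 2 (0.0666).

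In H3K4me1 the tested members were 4 leukocyte receptor genes and Adgrg7. Adgre5, or CD97, which binds CD55, had fractions of 0.524 and 0.349 in double, 0.395, 0.484 and 0.679 in CSF3R T618I, 0.399, 0.304 and 0.404 in Asxl1 guide and 0.684 and 0.649 in control cells. The Asxl1 guide minus control difference of -0.30 did not pass (limma adjusted p = 0.265). The double minus control difference of -0.23 did not pass either (limma adjusted p = 0.119). Adgrg1, at its 3′ end beside the start of Adgrg3, had 0.520 and 0.540 in double, 0.460, 0.665 and 0.589 in CSF3R T618I, 0.345, 0.405 and 0.485 in Asxl1 guide and 0.449 and 0.514 in control cells. Adgre1, which encodes the macrophage marker F4/80, reached at most 0.165 and was not tested. Adgre4, a receptor of myeloid cells, had 0.290 and 0.020 in double, 0 in all 3 CSF3R T618I, 0.295, 0.025 and 0 in Asxl1 guide and 0.030 and 0.035 in control cells, so that 1 library in each of 2 genotypes held most of its coverage.

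Adgrg3, or GPR97, is a receptor of granulocytes, and its 3′ end was covered less in double cells than in Asxl1 guide or control cells. Its gene lies at chromosome 8, 95017113-95045250, on the plus strand, 2.904 kb beyond the end of Adgrg1. At the 3′ end the H3K4me1 fraction was 0.440 and 0.340 in double, 0.550, 0.580 and 0.585 in CSF3R T618I, 1.0, 0.585 and 0.780 in Asxl1 guide and 0.895 and 0.685 in control cells. Both double libraries lay below all others. Their peaks began 0.6 and 1.4 kb beyond the gene, whereas the peak of every other library crossed the gene end. The difference was -0.40 against Asxl1 guide cells (SE 0.11, limma adjusted p = 0.0318) and -0.40 against control cells (limma adjusted p = 0.0446). At the start-site end of Adgrg3 the double minus Asxl1 guide and double minus control differences were 0.16 and 0.11 and did not pass (limma adjusted p = 0.111 and 0.328). The double minus CSF3R T618I difference was -0.12 at the start-site end and -0.18 at the 3′ end, and neither passed (limma adjusted p = 0.279 and 0.311). With 1 kb on either side of the 3′ end both differences were -0.88, and the difference from CSF3R T618I cells was -0.76 (limma adjusted p = 0.00102). Both calls in the 10 kb window were lost on the arcsine scale, the second also on leaving out any library but Asxl1 guide replicate 1 or 2 (0.0628 to 0.256), and the first on leaving out either double library or Asxl1 guide replicate 1 or 3 (0.0550 to 0.156).

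Adgrg7, or GPR128, a receptor of the intestine, had H3K4me1 fractions of 0.239 and 0.224 in double cells and 0 in the other 8 libraries. Double replicate 1 had a peak of 3100 bp and double replicate 2 a peak of 2750 bp, both beyond the 3′ end of the gene, on the side of Tfg, whose nearest end lies 7.141 kb away. No library had an H3K4me1 peak in the gene body or at the promoter. Since this end entered the test only through the double libraries, it had to differ. The difference was 0.23 against each of the other 3 genotypes (limma adjusted p = 0.00193 against CSF3R T618I, 0.00105 against Asxl1 guide and 0.00211 against control cells).

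Counted over the 5 tested members, H3K4me1 gave 1 higher and 0 lower in double against CSF3R T618I cells, beside 2.41% and 10.5% of all ends. Double against Asxl1 guide cells gave 1 higher and 1 lower, beside 11% and 9.79%, and double against control cells gave 1 higher and 1 lower, beside 9.06% and 11.2%. The interaction of guide and receptor gave 1 higher, beside 0.644%. The higher member was Adgrg7 each time, so these counts were fixed by the filter and nothing is read from them. In Asxl1 guide against control cells limma called 0 of 5, with 1 at an unadjusted p under 0.05, beside 0.43% of ends lower. In CSF3R T618I against control cells it called 0 of 5, with 0 at an unadjusted p under 0.05, beside 8.12% higher and 1.85% lower. Of all 2328 tested ends, 206 and 547 had an unadjusted p under 0.05 in Asxl1 guide and CSF3R T618I against control cells. The median difference between double and control cells was 0.048 for the members and -0.028 for all ends.

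**Figure D2:**
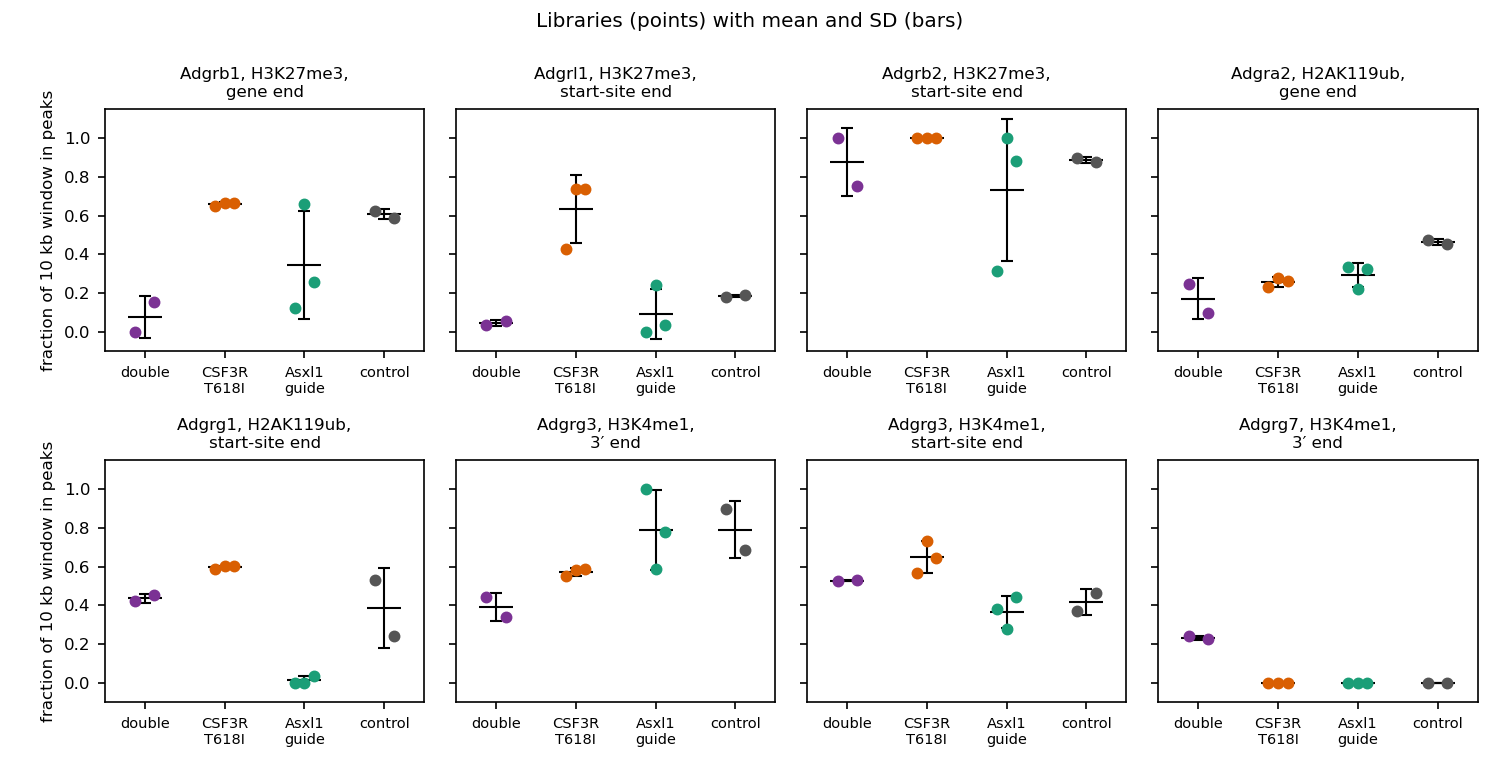
Fraction of the 10 kb window in peaks for 8 pairs of gene end and mark, with 1 point per library, the mean as a line and 1 SD as a bar for each genotype. Both double libraries of Adgrg3 lie below all other libraries at the 3′ end, and the 3 Asxl1 guide libraries of Adgrg1 lie at or near 0 in H2AK119ub.

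Gene bodies were measured as well. Peaks touched the body of 15 members in H3K27me3, 19 in H2AK119ub and 13 in H3K4me1. The highest fraction of a body in any library was 0.396 for H3K27me3 and 0.546 for H2AK119ub, both at Adgrb2, and 0.645 for H3K4me1, at Adgrg1. In the long genes Adgrl3 and Adgrv1 the covered fraction of the body reached at most 0.040 in any mark. Adgrg4, Adgrg7, Adgrf2 and Adgrf4 had no peak of any mark in the body.

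Related genes outside the symbol rule were counted in 3 lists. The 3 Celsr genes encode planar polarity receptors that are also adhesion G-protein-coupled receptors. Of these genes 2 were tested in H3K27me3 and 3 in H2AK119ub. Celsr3 fell by 0.39 in H3K27me3 in double against CSF3R T618I cells (limma adjusted p = 0.0337). Celsr1, 1 of 3 tested, rose in H2AK119ub in double against Asxl1 guide cells (0.25, limma adjusted p = 0.0163). In that comparison 10.4% of all ends were called higher. Of the 19 ligand genes 8 were tested in H3K27me3, and 2 fell in double against CSF3R T618I cells: C1ql4 (-0.47, limma adjusted p = 0.0265) and C1ql3 (-0.37, limma adjusted p = 0.0466), both secreted ligands of Adgrb3. These calls, like 1 of 2 tested Celsr genes, stand beside 22.8% of all ends called lower. The list medians in that comparison were -0.31 for the Celsr genes, -0.22 for the ligands and -0.28 for the G-protein genes, against -0.24 for all ends. Of the 9 G-protein signalling genes 3 were tested there, and Gnas, the stimulatory alpha subunit, fell by 0.42 (limma adjusted p = 0.0394).

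Among the 9 ligand genes tested in H2AK119ub, Tgm2, the transglutaminase 2 bound by Adgrg1, fell by 0.37 in Asxl1 guide against control cells (limma adjusted p = 0.0484). It was higher by 0.65 in double against Asxl1 guide cells (limma adjusted p = 0.00532). Rtn4r, the Nogo receptor that binds Adgrb1, rose by 0.51 in H2AK119ub in double against Asxl1 guide cells (limma adjusted p = 0.0106). It fell by 0.33 there in H3K4me1 (limma adjusted p = 0.0318), as 1 of 2 tested ligands, beside 9.79% of all ends called lower. In double against Asxl1 guide cells 2 of the 9 ligands were thus higher in H2AK119ub, beside 10.4% of all ends, and in Asxl1 guide against control cells 1 was lower, beside 7.43%. C1ql2 was higher by 0.28 in H2AK119ub in Asxl1 guide against control cells (limma adjusted p = 0.0185, beside 0.526% of ends called higher). No other gene of the lists passed in any comparison. The alternative settings were run for members only, so how far the list calls depend on single libraries was not tested.

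Averaged over the 27 members, the H3K27me3 fraction was 0.110 and 0.104 in double, 0.197, 0.215 and 0.226 in CSF3R T618I, 0.0387, 0.199 and 0.103 in Asxl1 guide and 0.134 and 0.154 in control cells. The means over all 21883 gene ends were 0.0470 and 0.0367, 0.0826, 0.0867 and 0.0982, 0.0162, 0.0881 and 0.0354, and 0.0484 and 0.0626 in the same order of libraries. The family mean therefore lay above the mean of all genes in every H3K27me3 library and moved with it from library to library. The CG counts of promoters are given as a description, without a test. Over the 20 members with a RefSeq promoter the median CG count was 17 for the 7 tested in H3K27me3 and 7 for the 13 not tested. The medians for all genes were 20 and 13. The 7 tested include Adgrl2, whose RefSeq promoter, with 4 CG dinucleotides, lies outside its window. For H3K4me1 the medians were 5 for the 4 members tested and 15 for the 16 not tested, against 18 and 14 for all genes.

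**Figure D3:**
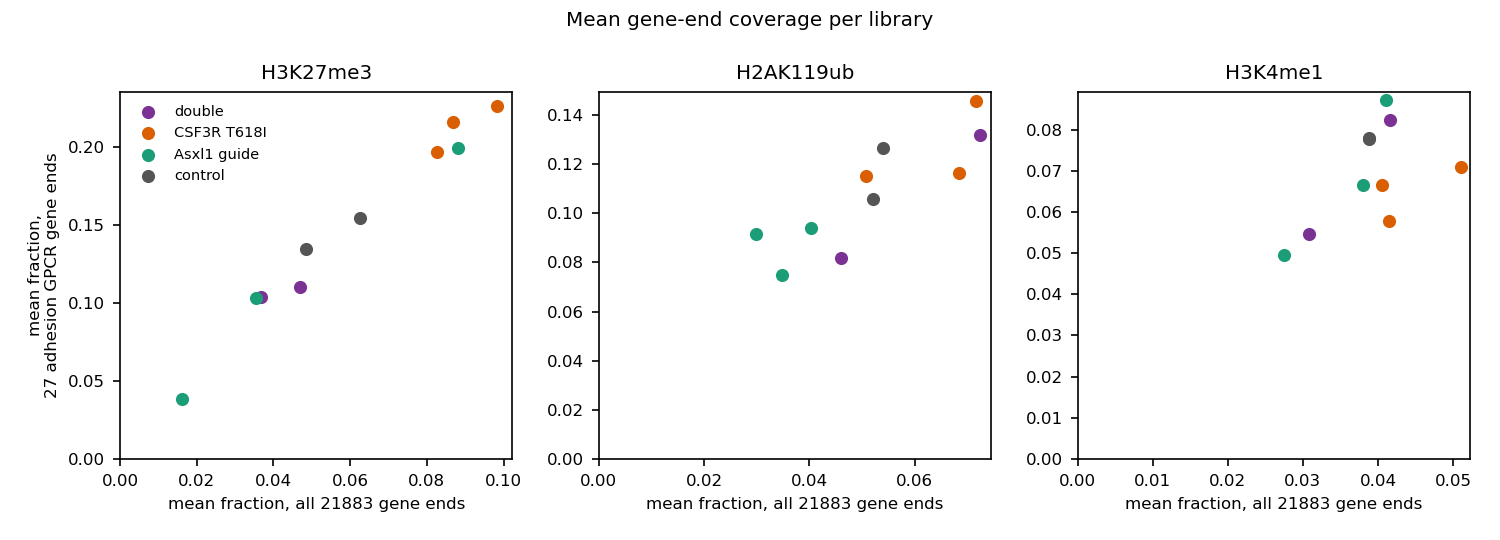
Mean gene-end fraction of the 27 members and of all 21883 genes in each library, by mark and genotype. In H3K27me3 both double libraries (0.110 and 0.104) lie below the 3 CSF3R T618I libraries (0.197 to 0.226) for the members.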

How the data were processed

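The 30 histone libraries (3 marks, 4 genotypes) and 1 list from 2 merged IgG libraries were CUT&Tag peak lists. The authors deposited peak positions, that is values of another kind than counts: the start and end of each peak in bp, in 1 list per library, without heights. Bowtie2 2.4.1, deepTools 3.5 and mm10 are named per the submitters' processing notes, and the peak caller is not given in the sources used here. Depth is unknown, so no counting interval was computed.

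The fraction of each 10 kb gene-end window, gene body and RefSeq promoter lying in peaks was computed for 21883 protein-coding genes. Strand came from RefSeq promoters for 17491 genes. Ends reaching 0.2 in at least 2 libraries of a mark were fitted with limma 3.58.1 (R 4.3.3), with 1 mean per genotype. Tests were 2-sided and p was adjusted by Benjamini-Hochberg over all tested ends of a mark and comparison, at 0.05. The 6 comparisons were the 5 pairs named in the text and the interaction, (double minus CSF3R T618I) minus (Asxl1 guide minus control). Tested on simulated shifts, CSF3R T618I against control recovered 0%, 44.8% and 75.8% of H3K27me3 shifts of 0.2, 0.4 and 0.6 over 3713 ends. Python 3.11.15, numpy 2.4.6, pandas 2.3.3 and matplotlib 3.10.9 were used.

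Genes were named by rule: called members, the 4 members with the highest mean per mark, 5 blood-cell members (Adgre1, Adgre4, Adgre5, Adgrg1, Adgrg3) and called genes of the 3 lists. Values of 1 member are not reported here, although counts and means over the family include it. The members and lists were chosen with earlier results of these data known. The start-site end was added after seeing the data. Alternatives were a 1 kb window, peaks of at least 400 bp, removal of IgG peaks, any overlap, an arcsine scale, covered length as covariate, the other gene end, the gene body, no filter, a replicate block and leaving out each library. Same-numbered libraries of different genotypes had correlations of deviations from -0.29 to 0.40, not all above 0.1, so the numbers were not treated as pairs. In H3K4me1 these correlations ran from -0.11 to 0.40 and were highest between CSF3R T618I and double cells (0.40 and 0.36). A shared deviation of same-numbered libraries in that mark was examined only through the replicate block.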

Additional observations from a re-analysis of the deposited data

Results flagged for a closer look

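At the 3′ end of Adgrg7 the H3K4me1 difference between double and CSF3R T618I cells was not the same as that between Asxl1 guide and control cells. The interaction of guide and receptor was 0.232 (limma adjusted p = 0.0302), since both double libraries held a peak (fractions 0.239 and 0.224) and the other 8 held none. The end entered the test only through the double libraries, so a difference was built in. The call was lost without control replicate 1 or 2, Asxl1 guide replicate 1 or 3 or CSF3R T618I replicate 2, where the adjusted p was between 0.0567 and 0.152. It could not be tested without either double library, because the end then failed the filter.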

How the results depend on the processing

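Counts here are members called. Except for gene bodies, the share of all ends called under each setting is not given in this section. The counts therefore show only how calls moved with the processing, and nothing about the members is read from them. A 1 kb window kept 3 lower in H3K27me3 for double against CSF3R T618I, with Adgrg6 called and Adgrl1 not (0.105), and gave 1 lower for the H3K27me3 interaction (0 before) and 1 higher in H2AK119ub for double against Asxl1 guide and against control (0 before), and 0 lower against control (1 before). In H3K4me1 it gave 0 higher for double against CSF3R T618I, Asxl1 guide and control and for the interaction (1 before each), and 1 lower against CSF3R T618I and for the interaction (0 before each). Removing IgG peaks gave 0 lower in H2AK119ub for double against control. Any overlap gave 0 in H3K27me3 for CSF3R T618I against control and double against CSF3R T618I (1 and 3 before), 0 lower in H2AK119ub for double against control, and 0 lower in H3K4me1 for double against Asxl1 guide and control. The arcsine scale gave 0 for those last 2 counts also. With covered length as covariate H3K27me3 gave 2 higher for CSF3R T618I against control (Adgrl1 joined) and 1 lower for double against control, and H2AK119ub gave 3 lower for double against CSF3R T618I (0 before). The lower-mean end gave 0 for both H3K27me3 counts and for H2AK119ub double against control, 1 lower in H2AK119ub for Asxl1 guide against control, 1 higher for double against Asxl1 guide, 1 higher in H3K4me1 for CSF3R T618I against control and 0 for every other H3K4me1 call. Gene bodies gave 0 in all, but only 3 members per mark passed the filter there. Calls over all tested bodies ran from 0 of 1768 (H3K27me3, Asxl1 guide against control) to 285 of 1363 (H3K4me1, double against Asxl1 guide). No filter gave 1 higher in H2AK119ub for double against Asxl1 guide and control, and 0 lower in H3K4me1 for both. The start-site end gave 1 lower in H2AK119ub for Asxl1 guide against control, 1 higher for double against Asxl1 guide, 0 lower for double against control, 0 for all H3K4me1 calls and 2 in H3K27me3 for double against CSF3R T618I, since Adgrb1 has no strand. The replicate block, where numbers share only a name, gave 0 for H3K27me3 CSF3R T618I against control higher, H2AK119ub double against control lower and the H3K4me1 interaction (1 before each), and 2 for H3K27me3 double against CSF3R T618I (3 before, Adgrb1 lost at adjusted p = 0.0539), and it lost Adgrg1's H2AK119ub start in Asxl1 guide against control (0.0523).

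Leaving out 1 library at a time gave 0 to 3 for H3K27me3 double against CSF3R T618I lower, 0 to 2 for Asxl1 guide against control lower and CSF3R T618I against control higher, and 0 to 1 for double against control lower. In H2AK119ub it gave 0 to 1 for double against Asxl1 guide higher, CSF3R T618I lower and control lower, and in H3K4me1 0 to 1 for each call named. Where this left 1 library in a genotype, it was assumed to vary like the others. Directions reversed for the H3K27me3 interaction of Adgrl1 (0.333) under any overlap, and for H3K4me1 of Adgrg3 at its start (0.163 against Asxl1 guide, 0.11 against control), which is a different place on the gene. The cause of the other changes was not tested. Peaks of at least 400 bp changed none of these counts. For CSF3R T618I against control, simulated shifts of 0.2 were recovered at 0% in H3K27me3, 29.9% in H2AK119ub and 38.8% in H3K4me1.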
